A study of Mus musculus with 6 samples.

Results

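The 7 genes described here encode secreted factors that bind heparin or keep neurons alive, and 1 receptor: midkine (Mdk), pleiotrophin (Ptn), hepatocyte growth factor (Hgf), its receptor Met, brain-derived neurotrophic factor (Bdnf), neurotrophin 3 (Ntf3) and glial cell line-derived neurotrophic factor (Gdnf). They were taken by symbol from the deposited count tables. All 7 of the 7 had a row among the 23329 genes listed, and all 7 were among the 13478 genes tested. The cells were primary cultures of mesenchymal cells from the small intestine of C57 mice, 3 grown from day 14.5 embryos (E14.5) and 3 from adult animals. Both groups grew in the same serum medium with the small-molecule inhibitor Y27632, and RNA was taken at passage 2 to 3. No label ties a culture to an animal of its own, so p-values measure the spread between these cultures, which may be technical. Stranded poly(A) RNA-seq gave between 30430596 and 32672370 counts in genes per E14.5 library, and between 18850224 and 29903594 per adult library. Markers of the labelled mesenchymal cells were abundant in every library: the 9 fibroblast markers together reached 12705 to 24571 CPM in E14.5 libraries and 12491 to 21293 CPM in adult libraries, and the 7 smooth muscle markers 24844 to 36047 CPM and 18604 to 29928 CPM in the same order. Most of the fibroblast sum came from collagen genes, Dcn and Vim. Of the 9 fibroblast markers 1 passed an adjusted p of 0.05 in edgeR, the receptor gene Pdgfra, which was lower in E14.5. That test called 0.838% of all genes lower. Pdgfra had 2.47, 3.85 and 4.45 CPM in E14.5 libraries against 29.5, 81.0 and 31.7 CPM in adult libraries (log2 fold change -3.72, SE 0.50, adjusted p = 0.036 in edgeR). Of the 9 markers, 7 had a negative log2 fold change and 2 a positive one. Unadjusted p in edgeR was under 0.05 for 5 of the 9, beside 17.9% of all genes. The part of these markers in the results below was not tested. No sort or gate is described. Before digestion the adult gut was scraped of villi and the embryonic gut was cut into pieces, so stage and handling cannot be told apart.

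Midkine and pleiotrophin are a family of small basic proteins that bind heparan sulfate and act through the receptor phosphatase PTPRZ1, ALK, syndecans and LRP1. Midkine is best known from the mid-gestation embryo. Hepatocyte growth factor is secreted by mesenchyme as an inactive precursor, is cleaved by serine proteases and acts on the tyrosine kinase MET of epithelial cells. The neurotrophins BDNF and neurotrophin 3 bind Trk receptors and the low-affinity receptor NGFR. GDNF, made by gut mesenchyme, acts through GFRA1 and RET on the neural crest cells that colonise the gut and form the enteric nervous system.

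None of the 7 genes passed the test between E14.5 and adult cultures. The test was edgeR's quasi-likelihood test with Benjamini-Hochberg adjustment over all genes, at a threshold of 0.05, and it called 1.08% of the 13478 genes (146). Unadjusted p was under 0.05 for 2 of the 7, Ptn with higher and Met with lower values in E14.5, where 17.9% of all genes lay under that level. DESeq2 called the same 2 genes and 10.6% of all genes, and limma-voom called 0 of the 7 and 1.02% of all genes. The libraries of the groups did not overlap for 1 of the 7, Met, and for 24.1% of all genes. Levels are given below as CPM, the counts of a gene scaled to a common library total.

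**Figure D1:**
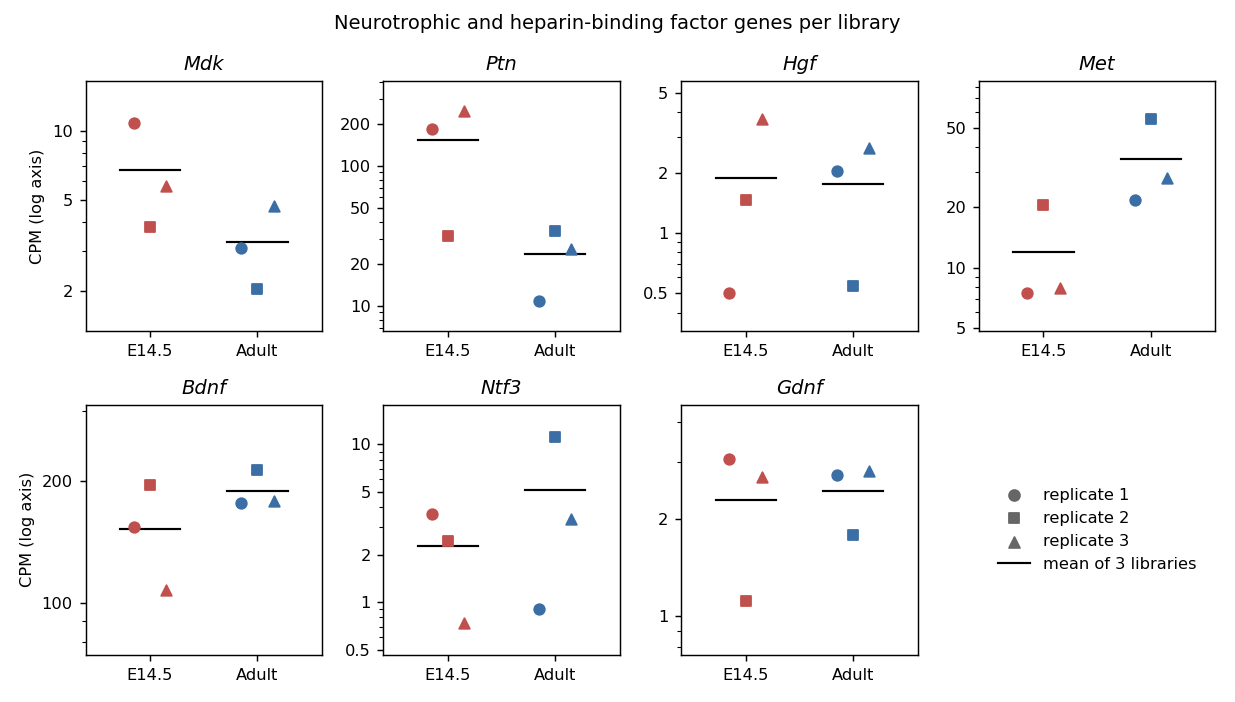
Level of each gene in each library, in CPM on a log axis, with E14.5 in red, adult in blue, replicates by marker shape and the mean of 3 libraries as a bar. Ptn lay high in E14.5 replicates 1 and 3 and within the adult range in replicate 2, and Met is the 1 gene whose groups do not overlap.

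Levels between genes were compared as CPM per kilobase of exon, with exon lengths from GENCODE M21. In E14.5 cultures Ptn averaged 44.9 ± 32.2 CPM per kilobase and Bdnf 24.5 ± 7.16 (SD, n = 3), and their libraries overlapped. Below them came Mdk at 5.11 ± 2.73, Met at 1.56 ± 0.965, Ntf3 at 1.33 ± 0.847, Gdnf at 0.623 ± 0.281 and Hgf at 0.263 ± 0.229 CPM per kilobase. Among these neighbours, Bdnf and Mdk did not overlap, nor did Mdk and Met, whereas the libraries of Met and Ntf3, of Ntf3 and Gdnf and of Gdnf and Hgf overlapped. In adult cultures Bdnf was highest at 30.5 ± 3.38 CPM per kilobase, and all 3 of its values lay above those of every other gene of the group. It was followed by Ptn at 6.84 ± 3.45, Met at 4.55 ± 2.33, Ntf3 at 2.99 ± 3.11 and Mdk at 2.46 ± 1.00. Within this run from Ptn to Mdk, neighbours overlapped. Gdnf at 0.665 ± 0.155 lay below Mdk, and Hgf at 0.244 ± 0.152 below Gdnf, in all adult libraries. No source used here names the annotation behind the deposited counts, so these lengths are approximate.

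Ptn had the largest difference of the 7 genes. It lies on chromosome 6 of mm10 (GRCm38) from 36714929 to 36810220 on the minus strand (GENCODE M21). Its level was 184, 31.7 and 246 CPM in E14.5 replicates 1, 2 and 3, against 10.8, 34.3 and 25.4 CPM in adult replicates 1, 2 and 3. Thus 2 E14.5 libraries stood far above all adult libraries, and E14.5 replicate 2 lay among them. The counts behind these levels were 5883, 1022 and 7976 in E14.5 and 286, 690 and 722 in adult libraries, so counting error is small beside the spread between cultures. Across the groups, the log2 fold change of E14.5 over adult was 2.71 (SE 0.80), with an adjusted p of 0.155 in edgeR. DESeq2 gave 2.71 with an adjusted p of 0.0016. Leaving out E14.5 replicate 2 gave 3.20 (SE 0.48, adjusted p = 0.039 in edgeR), in a fit that called 3.42% of its genes. Over all fits without 1 library the adjusted p of Ptn reached 0.427 in edgeR. Between libraries that share a title prefix, whose meaning the labels do not give, the log2 difference of CPM plus 0.5 was 4.03, -0.11 and 3.25.

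The bases before a RefSeq transcription start of Ptn and of Met are shown because Ptn and Met had the lowest p-values of the 7 genes, with fold changes of opposite sign. Both windows are the 250 bases upstream of a RefSeq start (GRCm38.p6), written 5′ to 3′ on the gene's strand. The GENCODE M21 starts, 36810220 for Ptn and 17463800 for Met, lie inside these windows. Part of each window is thus within the gene as GENCODE places it. Capitals mark motifs found on either strand. The AP-1 motif was searched as TGANTCA and the GC box, which binds factors of the SP family, as GGGCGG. The TATA box was searched by its core letters TATAAA, and the motif bound by the factor NF-Y by the letters CCAAT. None of these matches overlap in the printed windows, and a match is a description of the letters, not of binding.
Ptn, chr6:36810180-36810429, minus strand: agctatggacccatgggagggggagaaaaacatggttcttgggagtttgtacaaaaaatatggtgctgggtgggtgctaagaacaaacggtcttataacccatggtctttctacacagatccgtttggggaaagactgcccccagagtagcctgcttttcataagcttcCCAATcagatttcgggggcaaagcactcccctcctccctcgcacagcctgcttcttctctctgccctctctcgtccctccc
Met, chr6:17463707-17463956, plus strand: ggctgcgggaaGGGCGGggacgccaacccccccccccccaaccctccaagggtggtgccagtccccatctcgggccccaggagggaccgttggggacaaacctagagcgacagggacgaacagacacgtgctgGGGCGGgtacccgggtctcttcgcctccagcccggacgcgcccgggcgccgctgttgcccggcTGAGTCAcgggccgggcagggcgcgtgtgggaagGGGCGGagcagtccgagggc
The Met window is 74.0% G and C with 24 CpG dinucleotides, and it holds 3 GC boxes and 1 AP-1 motif. The Ptn window is 52.0% G and C with 5 CpG dinucleotides, and it holds 1 CCAAT motif. Over all 32851 RefSeq windows of this length the medians were 52.4% and 6 CpG dinucleotides. A GC box was present in 32.7% of all windows, an AP-1 motif in 6.75%, a TATA motif in 12.4% and a CCAAT motif in 33.8%. Windows were available for 6 of the 7 genes.

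The summed markers of glia were high in the same 2 E14.5 libraries as Ptn. The 9 markers of enteric glia and Schwann cells together reached 18.7, 2.85 and 14.5 CPM in the E14.5 libraries, replicates 1 to 3, against 3.98, 7.95 and 4.39 CPM in the adult libraries, replicates 1 to 3. Of these 9, 4 had enough counts to be tested and 0 passed the test, and the 4 did not share a sign. Erbb3 had a log2 fold change of 1.74, against -0.80 for S100b and -0.04 for Fabp7. Sox10, the defining transcription factor of glia and their progenitors, was too low to test and had 125, 0 and 78 counts in E14.5 libraries and 0, 1 and 1 counts in adult libraries. The 5 pericyte markers, all tested and 0 past the test, summed to 298, 30.2 and 106 CPM in E14.5 libraries and to 76.1, 87.8 and 88.7 CPM in adult libraries. This sum joins genes of opposite sign. Rgs5, Abcc9 and Kcnj8 had log2 fold changes of 4.87, 3.81 and 3.51, against -0.29 for Notch3 and -2.43 for Cspg4. Rgs5 had 240, 15.7 and 72.9 CPM in E14.5 libraries, against 1.93, 7.75 and 1.76 CPM in adult libraries. Cspg4 had 19.1, 2.54 and 10.1 CPM, against 46.3, 57.4 and 67.2 CPM. The part of glial and pericyte markers in the level of Ptn was not tested. In these bulk cultures, more cells of a type and more RNA per cell cannot be told apart.

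Mdk, the relative of Ptn, lies on chromosome 2 from 91929805 to 91932297. Its level was 10.8, 3.79 and 5.72 CPM in E14.5 cultures, from 345, 122 and 185 counts. Adult cultures had 3.07, 2.04 and 4.68 CPM, from 81, 41 and 133 counts. The lowest E14.5 library thus lay below the highest adult library, and the groups overlapped. This gave a log2 fold change of 1.05 (SE 0.50, adjusted p = 0.345 in edgeR), a difference that did not exceed the spread between cultures. In all 3 pairs that share a title prefix Mdk was higher in the E14.5 library, by 1.66, 0.76 and 0.26 on the log2 scale of CPM plus 0.5. Without E14.5 replicate 1 the log2 fold change was 0.53, against 1.4 without adult replicate 3.

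Of the genes of proteins through which midkine and pleiotrophin act, the 12 tested had counts at both stages, with 0 of the 12 past the test in either direction. Their median log2 fold change was 0.066, beside 0.013 for all genes tested. The integrin chain gene Itgb1, the most abundant, averaged 4094 ± 666 CPM in E14.5 cultures, against 3298 ± 144 CPM in adult ones (SD, n = 3 each). Lrp1, which encodes a large endocytic receptor, averaged 1157 ± 42.6 CPM in E14.5 cultures, against 1145 ± 313 CPM in adult ones. Ptprz1 averaged 121 ± 58.9 CPM and 163 ± 60.8 CPM in the same order (adjusted p = 0.695 in edgeR). DESeq2 called the syndecan gene Sdc3, beside 10.6% of all genes. Sdc3 had 668, 478 and 424 CPM in E14.5 libraries, against 335, 308 and 335 CPM in adult libraries (adjusted p = 0.141 in edgeR). Sdc2 lay the other way, at 223, 268 and 187 CPM against 379, 276 and 374 CPM (adjusted p = 0.176 in edgeR). The tyrosine kinase receptor genes Alk and Ltk were too low to test, with at most 16 counts for Alk and 1 count for Ltk in any library.

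Met, which encodes the receptor of hepatocyte growth factor, lies on chromosome 6 from 17463800 to 17573980 on the plus strand. It was lower in E14.5 cultures, at 7.44, 20.5 and 7.91 CPM in replicates 1, 2 and 3, against 21.7, 55.3 and 27.9 CPM in adult replicates 1, 2 and 3. Every E14.5 library lay below every adult library, though E14.5 replicate 2 and adult replicate 1 nearly met. For Met the log2 fold change came to -1.55 (SE 0.53, adjusted p = 0.208 in edgeR). DESeq2 gave -1.54 with an adjusted p of 0.039. Within the pairs that share a title prefix the log2 differences of CPM plus 0.5 were -1.48, -1.41 and -1.75, closer to each other than for any other of the 7 genes. Leaving out adult replicate 2 gave -1.05, and leaving out E14.5 replicate 3 as well gave -0.83 (adjusted p = 0.542 in edgeR).

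Mesothelial and endothelial markers followed Met in some libraries and not in others. The 7 mesothelial markers with a row, of 8 listed, together reached 163, 789 and 153 CPM in the E14.5 libraries, replicates 1 to 3, against 1487, 546 and 745 CPM in the adult libraries, replicates 1 to 3. E14.5 replicates 1 and 3 were thus lowest both in these markers and in Met. Among the adult libraries the order was the reverse, with the most mesothelial markers and the least Met in replicate 1, and the least markers and the most Met in replicate 2. All 7 mesothelial markers were tested and 0 passed. The 10 endothelial markers summed to between 11.8 and 37.2 CPM in E14.5 libraries. In adult libraries they summed to 22.9, 1887 and 409 CPM, and adult replicate 2 was also the library with the most Met. Among E14.5 libraries replicate 2 had the most Met and replicate 1 the largest endothelial sum. That place of replicate 1 rested on 1 gene, Emcn, with 22.5, 0.53 and 0.22 CPM in E14.5 replicates 1, 2 and 3. The defining endothelial gene Cdh5 had 1, 5 and 5 counts in E14.5 and 24, 5131 and 2332 counts in adult libraries. Of 9 tested endothelial markers 0 passed. Of 9 epithelial markers listed, 8 had a row, 2 were tested and 0 passed, and the 8 together reached 25.4 to 61.8 CPM in E14.5 libraries and 10.1 to 14.3 CPM in adult libraries. Nearly all of this was Krt20, a keratin gene, with 1962, 1515 and 790 counts in E14.5 libraries and 355, 183 and 391 counts in adult libraries (log2 fold change 1.87, adjusted p = 0.083 in edgeR), while Epcam had 2 to 4 counts in every library and Fabp2 had 0 counts in all 6. The part of mesothelial, endothelial and epithelial cells in the level of Met was not tested.

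**Figure D2:**
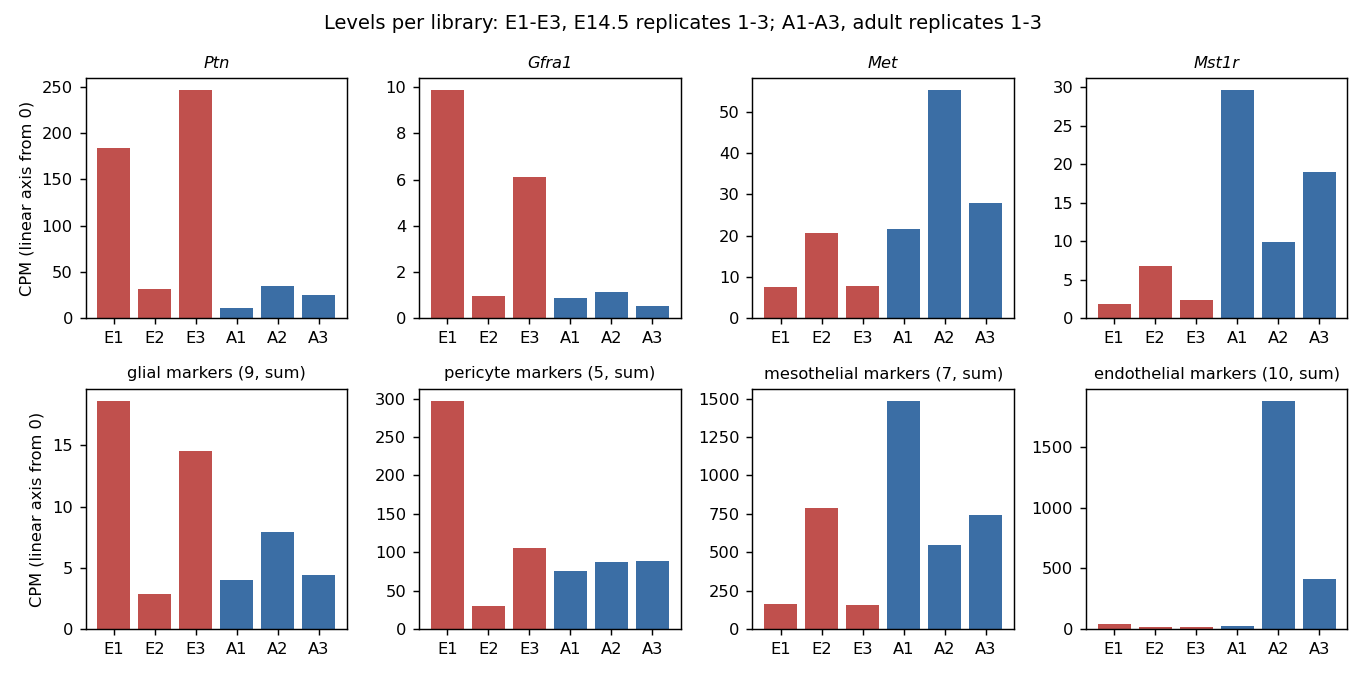
CPM per library on linear axes for Ptn, the GDNF receptor gene Gfra1, Met and the MET-related receptor gene Mst1r (top), and for the summed markers of 4 cell types (bottom), E14.5 in red and adult in blue. E14.5 replicate 2 lies within the adult range in Ptn, Gfra1 and mesothelial markers, and below it in glial markers.

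Hgf, on chromosome 5 from 16553495 to 16620152, was the lowest of the 7 genes per kilobase. Its level was 0.50, 1.46 and 3.71 CPM in E14.5 cultures, from 16, 47 and 120 counts, against 2.04, 0.546 and 2.67 CPM in adult cultures, from 54, 11 and 76 counts. The groups overlapped fully and spread over several-fold within each stage. Its log2 fold change, 0.10 (SE 0.85, adjusted p = 0.969 in edgeR), turned negative when E14.5 replicate 3 (-0.85) or adult replicate 2 (-0.32) was left out, so no direction can be given. The 10 leukocyte markers with a row, of 11 listed, had 8 tested and 0 past the test, and they together reached 163, 324 and 1951 CPM in the E14.5 libraries, replicates 1 to 3, the same order as Hgf. In adult replicates 1, 2 and 3 they summed to 150, 17.3 and 42.0 CPM, which is not the order of Hgf. Their part in the level of Hgf was not tested. In GENCODE M21 another gene on the same strand shares 6.74% of the exon bases of Hgf, and strand cannot separate reads there.

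No tested gene of the MET receptor family, of hepatocyte growth factor activation or of MET signalling passed the edgeR test. Mst1r, which encodes the MET-related receptor RON, averaged 3.69 ± 2.67 CPM in E14.5 cultures, against 19.5 ± 9.91 CPM in adult ones (SD, n = 3 each). Its log2 fold change was -2.40 (SE 0.63, adjusted p = 0.132 in edgeR and 0.0017 in DESeq2), and without E14.5 replicate 2 it was -3.18 (adjusted p = 0.0496 in edgeR). Over all fits without 1 library the adjusted p of Mst1r reached 0.385 in edgeR. Among proteases that can cleave the precursor, 3 of 8 were tested and 0 passed. Plau, the urokinase gene, averaged 75.6 ± 14.3 CPM in E14.5 cultures, against 95.1 ± 28 CPM in adult ones. Plat, the gene of tissue plasminogen activator, averaged 35.9 ± 17.4 CPM in E14.5 cultures, against 40.3 ± 2.88 CPM in adult ones. The gene of the activator HGFAC had at most 9 counts in any library. Of 3 tested protease inhibitor genes 0 passed. Spint2, which encodes a membrane inhibitor of these proteases, averaged 28.4 ± 16.3 CPM in E14.5 cultures, against 21.3 ± 4.10 CPM in adult ones. Of 12 tested genes of MET signalling 0 passed, with a median log2 fold change of -0.07. The phosphatase gene Ptpn11 averaged 345 ± 73.0 CPM in E14.5 cultures, against 340 ± 27.7 CPM in adult ones, and the adaptor gene Crk 300 ± 61.0 CPM and 316 ± 25.6 CPM in the same order.

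Bdnf was the steadiest of the 7 genes and the one with the most counts in adult cultures. It lies on chromosome 2 from 109674700 to 109727007 on the plus strand. Its level was 154, 196 and 107 CPM in E14.5 replicates 1, 2 and 3, against 177, 214 and 178 CPM in adult replicates 1, 2 and 3. The highest E14.5 library lay above 2 adult libraries, and the other 2 lay below all adult libraries. A log2 fold change of -0.31 (SE 0.23, adjusted p = 0.559 in edgeR) was within the spread between cultures. Leaving out E14.5 replicate 3 together with adult replicate 2 gave -0.03, and leaving out E14.5 replicate 2 alone gave -0.54. An antisense gene shares 14.4% of the exon bases of Bdnf, and the libraries were stranded.

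Ntf3, on chromosome 6 from 126101412 to 126166910 on the minus strand, was low and uneven. It had 3.63, 2.45 and 0.742 CPM in E14.5 cultures, from 116, 79 and 24 counts. Adult replicates 1, 2 and 3 had 0.909, 11.1 and 3.34 CPM, from 24, 224 and 95 counts. The adult libraries held both a value close to the lowest E14.5 library and the highest value of all. Ntf3 thus had a log2 fold change of -1.17 (SE 0.97, adjusted p = 0.618 in edgeR), and it was 0.09 without adult replicate 2 and 0.50 without that library and E14.5 replicate 3. Adult replicate 2, with the most Ntf3, was also the library with the most endothelial markers, at 1887 CPM. Their part in the level of Ntf3 was not tested.

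The relative Ntf5, the gene of neurotrophin 4, averaged 9.73 ± 5.6 CPM in E14.5 cultures, against 5.90 ± 3.24 CPM in adult ones (adjusted p = 0.616 in edgeR).

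The Trk receptor genes of BDNF and neurotrophin 3 had few counts in both groups. Ntrk2, which encodes the receptor of BDNF, had 4 to 18 counts per E14.5 library and 1 to 3 per adult library. Ntrk3, which encodes the receptor of neurotrophin 3, had 1 to 12 counts per E14.5 library and 5 to 7 per adult library, and both were too low to test. Of 4 tested genes of the p75 and sortilin family 0 passed, all 4 had a positive log2 fold change, and their median was 1.15, beside 0.013 for all genes. Sort1, which encodes the sorting receptor sortilin, averaged 109 ± 20.3 CPM in E14.5 cultures, against 57.1 ± 9.67 CPM in adult ones (log2 fold change 0.93, SE 0.19, adjusted p = 0.089 in edgeR). DESeq2 gave Sort1 an adjusted p of 9.0e-04. Sorcs2, a relative of sortilin, averaged 55.5 ± 31.2 CPM in E14.5 cultures, against 21.6 ± 7.92 CPM in adult ones (adjusted p = 0.270 in edgeR). Among 4 convertase genes, whose products cleave precursors of neurotrophins, 0 passed. Pcsk6 averaged 332 ± 5.95 CPM in E14.5 cultures, against 551 ± 93.8 CPM in adult ones (adjusted p = 0.097 in edgeR and 9.1e-04 in DESeq2), and Furin 154 ± 58.4 CPM and 131 ± 18.9 CPM in the same order.

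Gdnf, on chromosome 15 from 7810846 to 7837575, was low and near equal at both stages. It had 3.06, 1.12 and 2.69 CPM in E14.5 cultures, from 98, 36 and 87 counts, against 2.73, 1.79 and 2.81 CPM in adult cultures, from 72, 36 and 80 counts. The highest and the lowest library were both embryonic. Gdnf had a log2 fold change of -0.09 (SE 0.46, adjusted p = 0.948 in edgeR), and the sign turned when E14.5 replicate 2 (0.23) or adult replicate 3 (0.02) was left out. The other tested ligands of the family were as low, with Nrtn (neurturin) at 1.41 ± 0.895 CPM in E14.5 cultures, against 1.43 ± 0.709 CPM in adult ones and Artn (artemin) at 0.765 ± 0.639 CPM and 0.770 ± 0.502 CPM in the same order.

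Of 5 tested genes of GDNF family receptors 0 passed. Gfra1, the co-receptor gene, had 9.88, 0.962 and 6.12 CPM in E14.5 replicates 1, 2 and 3, against 0.871, 1.14 and 0.527 CPM in adult replicates 1, 2 and 3. As for Ptn, E14.5 replicates 1 and 3 were high and replicate 2 lay within the adult range. This was a log2 fold change of 2.74 (SE 0.85, adjusted p = 0.171 in edgeR and 0.011 in DESeq2), which leaving out E14.5 replicate 2 moved to 3.25 (adjusted p = 0.031 in edgeR). Over all fits without 1 library the adjusted p of Gfra1 reached 0.465 in edgeR. The glial markers given above, from 2.85 to 18.7 CPM in E14.5 and from 3.98 to 7.95 CPM in adult libraries, were high in the same 2 libraries as Gfra1, and their part was not tested. Ret, the signalling receptor gene, had 0.97, 0.40 and 0.53 CPM in E14.5 replicates 1, 2 and 3, from 31, 13 and 17 counts. Adult replicates 1, 2 and 3 had 1.70, 2.78 and 1.05 CPM, from 45, 56 and 30 counts. Its groups did not overlap, as for 24.1% of all genes. The log2 fold change of Ret was -1.53 (SE 0.54, adjusted p = 0.213 in edgeR), opposite in sign to that of Gfra1. Ncam1, an adhesion molecule that can bind GDNF with GFRA1, averaged 277 ± 125 CPM in E14.5 cultures, against 196 ± 68.7 CPM in adult ones (adjusted p = 0.602 in edgeR).

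**Figure D3:**
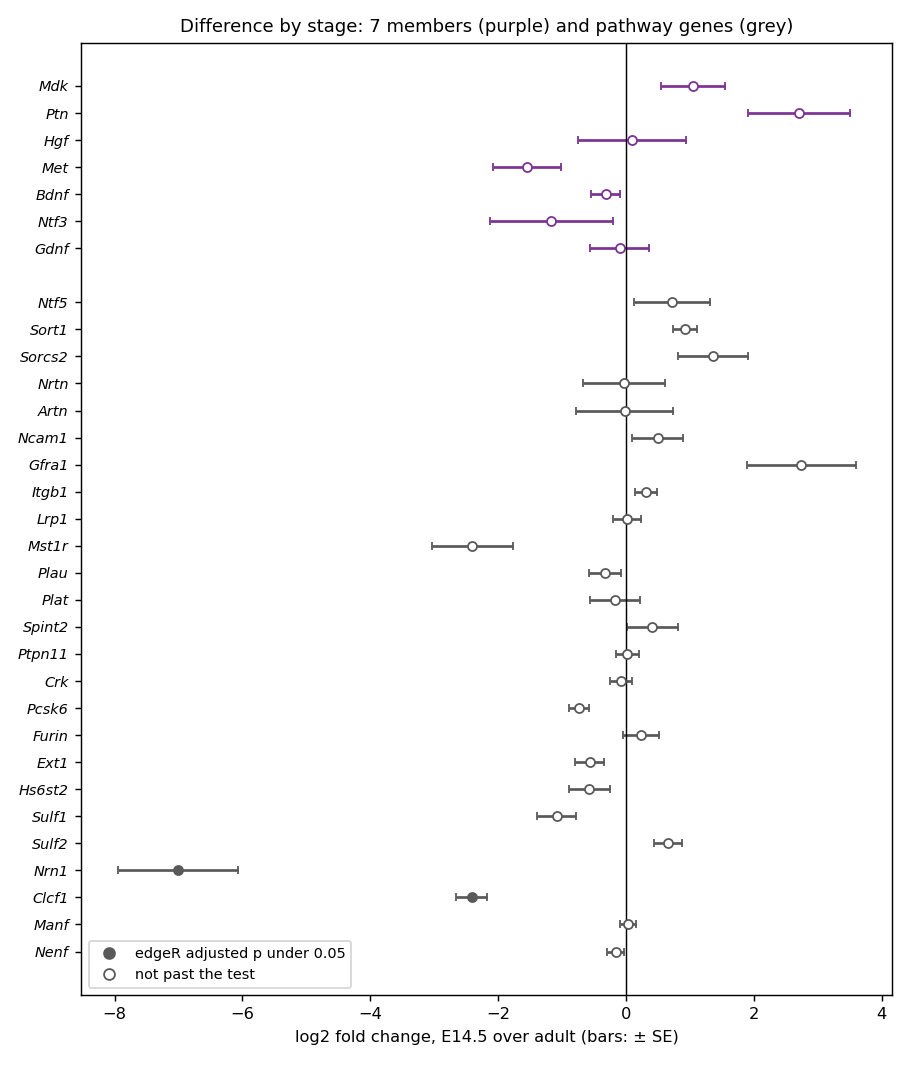
Log2 fold change, E14.5 over adult, with bars of ± SE from edgeR, for the 7 genes (purple) and for 25 genes of their pathways taken by a fixed rule (grey); filled points are past an adjusted p of 0.05. The 7 genes are all open, and Nrn1 and Clcf1 are the filled points, both lower in E14.5.

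Genes that build heparan sulfate, the sugar chain that holds these factors at the cell surface, had 0 of 22 tested members past the test and a median log2 fold change of -0.026. Ext1, which encodes a chain polymerase, averaged 307 ± 63.1 CPM in E14.5 cultures, against 455 ± 100 CPM in adult ones (SD, n = 3 each). Hs6st2, which encodes a sulfotransferase, averaged 199 ± 90.6 CPM in E14.5 cultures, against 296 ± 27.3 CPM in adult ones. The 2 endosulfatase genes, whose products remove sulfate from the finished chain, had opposite signs and neither passed in edgeR. Sulf1 averaged 381 ± 81.6 CPM in E14.5 cultures, against 809 ± 299 CPM in adult ones (log2 fold change -1.09, SE 0.31, adjusted p = 0.148 in edgeR and 0.0125 in DESeq2). Sulf2 averaged 308 ± 80.4 CPM in E14.5 cultures, against 195 ± 18.0 CPM in adult ones (log2 fold change 0.66, SE 0.21, adjusted p = 0.183 in edgeR). Without E14.5 replicate 2 the adjusted p of Sulf2 was 0.041 in edgeR, and over all fits without 1 library it reached 0.465.

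Of the other secreted factors with neurotrophic activity, 2 of 6 tested genes fell in E14.5 cultures. Clcf1, which encodes a cytokine that acts on the ciliary neurotrophic factor receptor, averaged 3.10 ± 0.752 CPM in E14.5 cultures, against 16.5 ± 2.07 CPM in adult ones (log2 fold change -2.41, SE 0.25, adjusted p = 0.022 in edgeR). Nrn1, the neuritin gene, had 5, 4 and 3 counts in E14.5 and 164, 712 and 234 counts in adult libraries (log2 fold change -7.01, SE 0.93, adjusted p = 0.036 in edgeR). Both calls were lost without E14.5 replicate 1 (adjusted p = 0.097 for Clcf1 and 0.132 for Nrn1) and without adult replicate 1 (0.067 and 0.055) or 3 (0.137 and 0.141). That of Clcf1 was also lost without adult replicate 2 (0.062), and that of Nrn1 without E14.5 replicate 2 (0.052) or 3 (0.089), all in edgeR. The call of Nrn1 was also lost in limma-voom (adjusted p = 0.132), and both were lost with the title prefix as a replicate block (0.094 each in edgeR). Manf averaged 228 ± 29.1 CPM in E14.5 cultures, against 223 ± 4.91 CPM in adult ones, and Nenf 43.7 ± 5.52 CPM and 48.9 ± 2.92 CPM in the same order. Over all 98 pathway genes outside the 7, 80 were tested, 0 rose and 3 fell, Clcf1 and Nrn1 among them, while the test called 0.245% of all genes higher and 0.838% lower. The groups did not overlap for 23 of the 80 (28.7%), beside 24.1% of all genes.

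The genes closest in pattern to each of the 7 were found by Pearson correlation of log2 CPM over the 6 libraries, among 9793 genes with a mean of at least 5 CPM. The 6 libraries share medium and library preparation, and the coefficients describe these libraries only. For Ptn they were Trps1 (0.9998) and Rpl36a (0.9986), for Met Plscr2 (0.990) and Asap2 (0.986), and for Mdk Rcc1 (0.979) and Serf1 (0.970). Trps1 spanned 7.53 to 22.3 CPM, a far narrower range than that of Ptn. For Bdnf they were Hnrpll (0.988) and Naa15 (0.982), for Ntf3 Zfp426 (0.975) and Megf10 (0.971), for Gdnf Foxj2 (0.994) and S1pr3 (0.991), and for Hgf Rce1 (0.993). Some of these genes were nearly flat: Hnrpll spanned 62.8 to 70.4 CPM, Rce1 11.9 to 14.0 CPM and Zfp426 18.6 to 23.9 CPM. Others were not, with S1pr3 at 3.23 to 33.7 CPM and Megf10 at 2.12 to 17.8 CPM. These coefficients were picked as the highest among 9793 genes, which by itself favours high values. Among the 7 genes, Met and Mdk had -0.881, Met and Ptn -0.754, and Met and Bdnf 0.827 over the same 6 libraries.

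**Figure D4:**
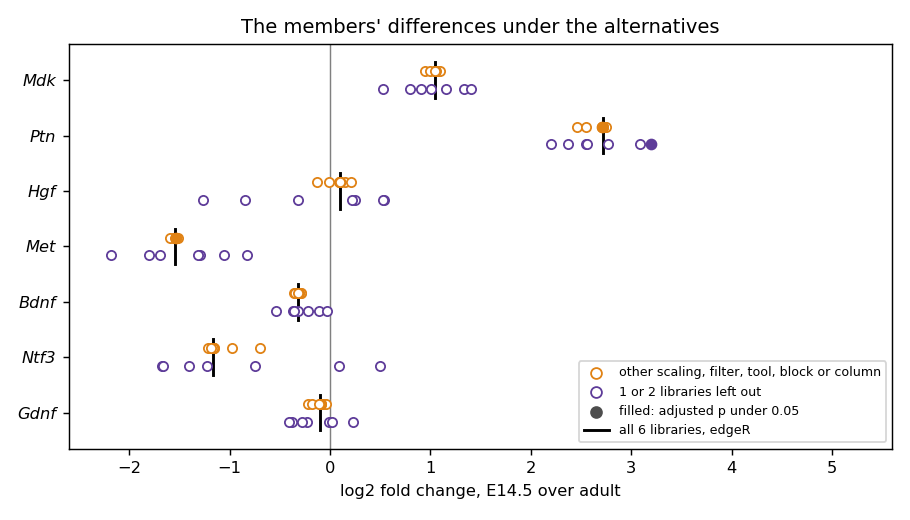
Log2 fold change, E14.5 over adult, of each gene with all 6 libraries (black bar) and under 17 alternatives, orange for another scaling, filter, tool, block or count column and purple for fits without 1 or 2 libraries; filled points are past an adjusted p of 0.05. Ptn stayed positive, Met and Bdnf negative and Mdk positive, while Hgf, Ntf3 and Gdnf crossed 0.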

How the data were processed

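Each library has 1 table of unnormalized whole-number counts, deposited by the authors. Alignment was by STAR against mm10, per the submitters' processing notes, and no version, annotation or rule for shared reads is given there. The reverse-strand count column was used, since forward-strand counts made up 1.332% to 1.687% of stranded gene counts. Rows that name no gene held 17.45% to 19.81% of reads and were left out.

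In R 4.3.3, edgeR 4.0.16 (filterByExpr, TMM, robust quasi-likelihood fit with the group alone, Benjamini-Hochberg over all genes) gave the fold changes and adjusted p-values. SE is the size of the log2 fold change divided by the square root of F, which is approximate. CPM uses TMM-scaled library sizes. DESeq2 1.42.0 and limma 3.58.1 were alternatives. The steps were tested on simulated counts. Replicates were numbered in accession order.

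The 7 genes and the pathway and marker lists were chosen with earlier results of these data known. From each pathway list, the text names up to 3 genes higher and 3 lower past the threshold and the 2 of highest mean CPM not past it. It also names the 2 genes closest in pattern to each of the 7 (log2 CPM with a prior count of 2, unnamed gene models left out). The genes Alk, Ltk, Ptprz1, Sdc2, Sdc3, Ntrk2, Ntrk3, Ret, Hgfac and single markers were chosen after their values were seen. Some genes that this rule selects are not reported here.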

Additional observations from a re-analysis of the deposited data

How the results depend on the processing

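There were 17 alternatives. The direction of Ptn, Met, Mdk, Bdnf, Clcf1 and Nrn1 held in all of them. With 1 library left out, log2 fold changes lay between 2.20 and 3.20 for Ptn, -2.18 and -1.05 for Met, 0.53 and 1.4 for Mdk, -0.54 and -0.11 for Bdnf, -0.85 and 0.53 for Hgf, -1.67 and 0.093 for Ntf3 and -0.38 and 0.23 for Gdnf. In the same fits the number of genes past the threshold lay between 3 and 471, that of the 7 genes between 0 and 1 and that of the pathway genes between 0 and 7. With DESeq2 these numbers were 1427, 2 and 11, and the values were 2.71 for Ptn and -1.54 for Met. For Hgf, limma-voom gave -0.13, and a replicate block on the title prefix gave -0.0064. Without adult replicate 2 and E14.5 replicate 3 together, Hgf turned to -1.27 and Ntf3 to 0.50, with 36 genes and 1 pathway gene past the threshold. The cause of these shifts was not tested.

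Between libraries that share a title prefix, deviations from the group means correlated at -0.141, -0.229 and -0.088, and every E14.5 library correlated better with an adult library of another prefix, so the prefixes were not taken to pair the samples. With the prefix as a replicate block, 2 genes, 0 of the 7 and 0 pathway genes passed, and Met had -1.60 (adjusted p = 0.094 in edgeR).

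Of the pathway genes named, 9 changed sign under 1 or more alternatives. Nrtn was 0.0199 with upper-quartile scaling and 0.0422 with library size alone, and Artn 0.0153 and 0.0331. Without the 2 libraries together, Artn was 0.0342, Lrp1 -0.22 and Crk 0.0039. With 1 library left out, values lay between -0.59 and 0.44 for Nrtn, -0.93 and 0.65 for Artn, -0.19 and 0.18 for Lrp1, -0.40 and 0.19 for Plat, -0.16 and 0.67 for Spint2, -0.080 and 0.19 for Ptpn11, -0.24 and 0.057 for Crk, -0.13 and 0.42 for Furin and -0.039 and 0.13 for Manf. Artn gave no value under the stricter filter of 1 CPM in 3 libraries. Hgf, Ntf3 and Gdnf had 11 to 224 counts per library.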

Other observations

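Other pathway genes, chosen here after their values were seen, also set E14.5 replicate 2 apart from the other E14.5 libraries. Hpse2, which encodes the heparan sulfate-binding protein heparanase 2, had 352, 12 and 310 counts in E14.5 replicates 1, 2 and 3, against 1, 1 and 0 counts in adult replicates 1, 2 and 3. That is 11.0, 0.372 and 9.58 CPM in E14.5 libraries, with all 3 above the adult libraries (adjusted p = 0.095 in edgeR). Ngfr, the low-affinity neurotrophin receptor gene, had 225, 42 and 112 counts in E14.5 and 24, 10 and 52 counts in adult libraries (adjusted p = 0.271 in edgeR). Pcsk5, a convertase gene, lay the other way, at 127, 984 and 112 counts in E14.5 and 1288, 1138 and 1209 counts in adult libraries (adjusted p = 0.308 in edgeR).

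Of 12 markers of enteric neurons 5 were tested and 0 passed, and several defining genes, picked here after their values were seen, were near 0. Chat had 0 counts in all E14.5 libraries and 1, 0 and 0 in adult libraries, and Snap25 had at most 2 counts in any library. Stmn2 had 40, 620 and 37 counts in E14.5 and 36, 57 and 36 counts in adult libraries.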
